A study of Arabidopsis thaliana with 9 samples.

Results

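The peaks described here lie around the centromere of chromosome 2 of Arabidopsis thaliana, with summits from 1.5 to 6.5 Mb on the TAIR10 build. They were chosen by position alone, and 599 of the 11422 peaks in 2 deposited lists of FIE binding sites qualified. The double knockdown list gave 413 of its 4882 peaks and the wild-type list 186 of its 6540. The stretch from 3.2 to 3.6 Mb, where a copy of mitochondrial DNA sits in the nuclear chromosome, held 13 knockdown and 3 wild-type peaks and is described apart. The other 400 knockdown and 183 wild-type peaks are called the pericentromeric peaks.

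FIE is the WD40-repeat subunit of Polycomb repressive complex 2 (PRC2), which places the repressive mark H3K27me3 on histone H3. PRC2 of Arabidopsis is known mainly for silencing developmental genes on the chromosome arms, while the repeats around centromeres are mostly silenced by DNA methylation and H3K9 methylation. BPC proteins bind GA-rich DNA, and they and some zinc finger (ZnF) proteins are known to bring PRC2 to its target genes. Pericentromeres are poor in protein-coding genes and rich in transposons and their decayed copies, and reads from such repeats, or from an organelle copy, can map to several places.

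FIE binding was profiled by ChIP-seq in 9 libraries, 3 in each of 3 groups, all from 30 hr old plants of the Ws strain. Anti-FIE chromatin came from plants that carried the RNA interference transgenes pRNAi-BPC and pRNAi-ZnF (the double knockdown) and from the wild type without a transgene. The third group was input chromatin from the wild type, so there was no input from the knockdown. The material is labelled only as plants, a mixture of cell types, and the promoter of the transgenes and the remaining BPC and ZnF levels are not given in the sources used here. There is 1 deposited list per anti-FIE group, so no difference between the lists has a replicate check and none was tested. One list is named for the wild type. The name of the other is an abbreviation with no key in the labels, and it was assigned to the knockdown as the one other anti-FIE group.

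Each peak has a summit and a fold enrichment, the ratio of the pileup (the reads or fragments stacked at the summit) to the local background, with 1 added to both. Both were recovered from the deposited fold and p-value. The lowest background was 7.95 in the knockdown list and 16.9 in the wild-type list. In the whole lists, 874 pairs had summits at most 30 bp apart, and over them the median background ratio of knockdown to wild type was 0.471. The knockdown list was therefore the shallower one, its lowest pileup being 35 against 53 in the wild-type list, and its fold values start higher. Fold values are ranked within a list and not compared between lists. A site under the filter of −log10 q of 10 is missing from a list without being unbound.

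The knockdown list held more peaks than the wild-type list along nearly the whole window. In bins of 100 kb it had more peaks in 40 of 50 bins, as many in 8 and fewer in 2, with a median of 6 knockdown and 2.5 wild-type peaks per bin. The order was the opposite elsewhere on the chromosome, where the lists held 304 knockdown and 731 wild-type peaks. Peak density was 66.5 knockdown and 30 wild-type peaks per Mb left of the insertion (1.5 to 3.2 Mb), and 99.0 and 45.5 per Mb right of it (3.6 to 6.5 Mb). In the gene-poor runs of chromosomes 1, 3, 4 and 5 the densities were 155.8 knockdown and 104 wild-type peaks per Mb, above those of the chromosome 2 window in both lists. A gene-poor run is the longest stretch of a chromosome where protein-coding genes per 100 kb, averaged over 5 bins, numbered less than 0.5 times the median.

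Both lists had their fullest bin at 3.6 to 3.7 Mb, directly right of the insertion window, with 38 knockdown and 23 wild-type peaks. Across 3.5 to 4.0 Mb there were 89 knockdown peaks, of which 38 overlapped a wild-type peak, and 50 wild-type peaks, of which 40 overlapped a knockdown peak. The summits just inside and just outside 1.5 Mb had folds of 4.03 and 4.14 in the knockdown list and 3.51 and 2.93 in the wild-type list. At 6.5 Mb those just inside and just outside had folds of 4.25 and 4.25 in the knockdown list and 4.20 and 3.14 in the wild-type list. At 3.2 Mb the folds just inside and just outside the insertion window were 4.36 and 4.11 in the knockdown list and 3.25 and 4.87 in the wild-type list. At 3.6 Mb they were 4.03 and 9.73 in the knockdown list and 2.60 and 5.07 in the wild-type list.

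**Figure D1:**
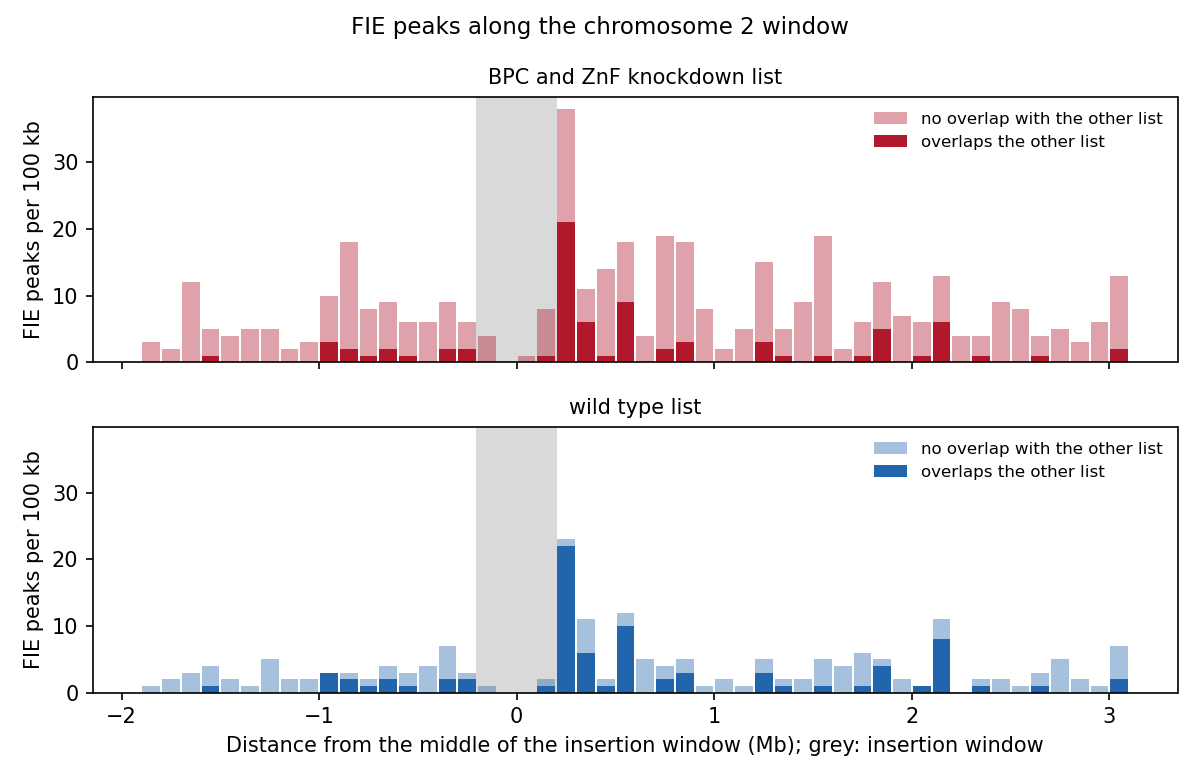
Number of FIE peaks per 100 kb in the knockdown list (top) and the wild-type list (bottom), against the distance in Mb from the middle of the insertion window, which is shaded grey. Dark bars are peaks that overlap the other list and pale bars those that do not; both lists are sparse in the insertion window and fullest, with 38 and 23 peaks, in the bin to its right.

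Few of the knockdown peaks had a counterpart in the wild type. Peaks are called shared here if 1 bp or more of their length lies under a peak from the other list. Of the pericentromeric knockdown peaks, 78 of 400 were shared, which is 19.5% (95% Wilson interval 15.9% to 23.7%), against 27.7% of the whole knockdown list. Of the wild-type peaks 81 of 183 were shared, 44.3% (37.3% to 51.5%), against 22.4% of the whole wild-type list. The intervals cover the sampling of peaks alone, and neighbouring peaks are not independent.

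Sharing differed along the window. Left of the insertion 14 of 113 knockdown peaks were shared (12.4%, interval 7.53% to 19.7%) and 14 of 51 wild-type peaks (27.5%, 17.1% to 41.0%). Right of it 64 of 287 knockdown peaks were shared (22.3%, 17.9% to 27.5%) and 67 of 132 wild-type peaks (50.8%, 42.3% to 59.1%). Sharing on the right was highest beside the insertion. From 3.5 to 4 Mb, which includes the right end of the insertion window, 38 of 89 knockdown and 40 of 50 wild-type peaks were shared. In the bins of 500 kb further right the knockdown counts were 5 of 51, 5 of 53, 7 of 33, 7 of 38 and 3 of 31. The wild-type counts there were 5 of 17, 5 of 15, 6 of 18, 9 of 16 and 3 of 18. The contrast is therefore not read as a trait of the whole right side. On the rest of chromosome 2 the shares were 14.8% of knockdown and 6.29% of wild-type peaks.

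The gene-poor run of chromosome 2, from 3.6 to 6.4 Mb, had the lowest shares of the 5 chromosomes in both lists. It shared 22.6% of its knockdown peaks, against 41.8%, 47.3%, 40.2% and 50.4% in the runs of chromosomes 1, 3, 4 and 5. Of its wild-type peaks 52.0% were shared, against 67.3%, 77.2%, 75.4% and 80.5% in the same 4 runs. The pooled shares of those 4 runs were 45.6% of knockdown and 75.3% of wild-type peaks.

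**Figure D2:**
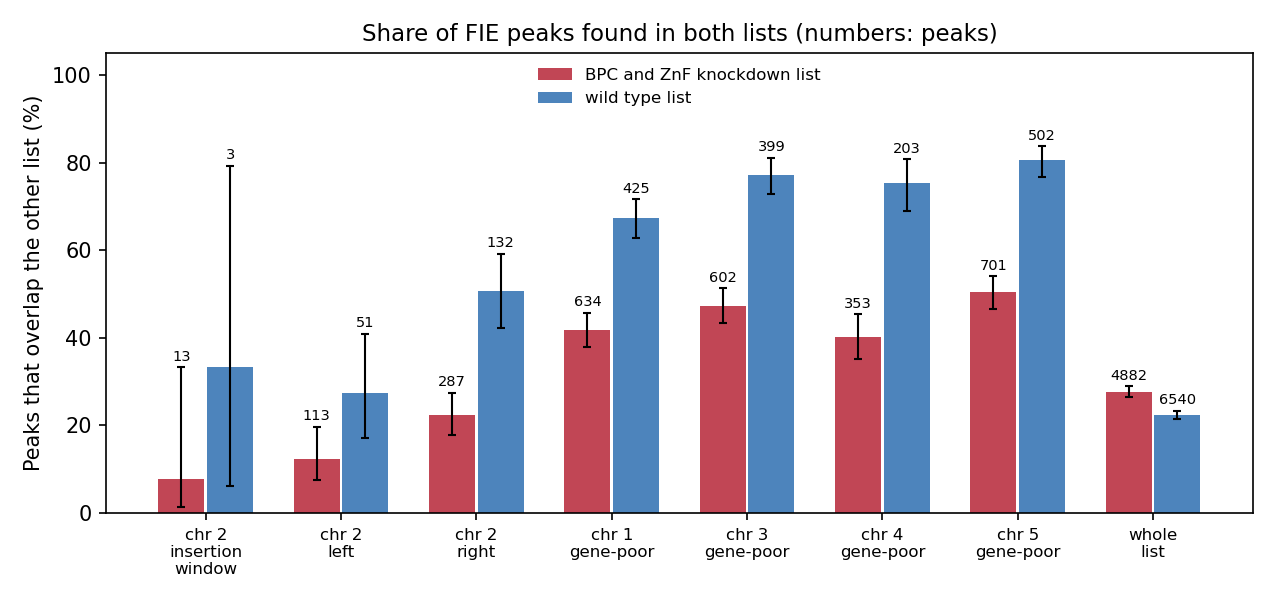
Percent of FIE peaks that overlap a peak of the other list, for the knockdown and the wild-type list side by side, in the insertion window, left and right of it, in the gene-poor runs of chromosomes 1, 3, 4 and 5 and in the whole lists. Bars are shares with 95% Wilson intervals and the numbers above are peaks; right of the insertion the shares, 22.3% of knockdown and 50.8% of wild-type peaks, are below those of all 4 runs.

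To set the shares beside the recovered depths, the pileup and background of each wild-type peak were scaled by 0.471 and set against the lowest −log10 p of the knockdown list. Of the 183 pericentromeric wild-type peaks 39 would still pass, and 32 of the 39 were shared (82.1%, interval 67.3% to 91.0%). The share of such peaks was 41.9% in the whole list and 92.2% in the pooled gene-poor runs of the other 4 chromosomes. By chromosome it was 64.2%, 95.6%, 96.1% and 97.2% in the runs of chromosomes 1, 3, 4 and 5. In the run of chromosome 2 it was 85.3%, so chromosome 2 was not the lowest here. The scaling takes occupancy as equal in both groups and background as following depth. The part of depth in the shares was not tested.

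The 7 wild-type peaks that would pass and had no knockdown peak were scattered over the window. The highest fold among them, 6.72, was that of a 942 bp peak at 1733732 to 1734673, which covered 740 bp of the protein-coding gene AT2G04930. The summit of this peak lay 15 bp outside AT2G04930. A 1150 bp peak at 6018033 to 6019182 with a fold of 5.54 covered 625 bp of AGL44, a MADS-box transcription factor gene known for root growth towards nitrate. Its summit lay 83 bp outside the gene. An 828 bp peak at 4141944 to 4142771 with a fold of 4.09 covered all of MIR396a, the gene of a microRNA that targets growth-regulating factors. The summit of this peak also lay outside the gene. A 702 bp peak at 4923728 to 4924429 with a fold of 5.27 had its summit in AT2G12290. A 256 bp peak with a fold of 4.17 lay in ACO3, an aconitase gene. The last of the 7 overlapped no gene of the table, at 4996933 to 4997195 (fold 6.39) and 6132347 to 6132951 (fold 4.59).

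Shared and unshared peaks differed in size. The median shared knockdown peak was 226 bp long with a pileup of 91.5, and the median unshared one 116 bp with 38. In the wild type the medians were 191 bp and a pileup of 101 for shared peaks, and 130 bp and 58 for unshared ones. Of the peaks of 500 bp or longer, 16 were among the 78 shared and 7 among the 322 unshared knockdown peaks, and 15 among the 81 shared and 12 among the 102 unshared wild-type peaks. Median fold was 5.09 in shared and 4.14 in unshared knockdown peaks, and 3.19 in both wild-type classes. The lowest pileup of the list, 35, was that of 87 of the 400 knockdown peaks, against 16% of the whole list, and 84 of the 87 were unshared. The lowest wild-type pileup, 53, was that of 12 of the 183 wild-type peaks, against 2.97% of the whole list, and all 12 were unshared.

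Over all pericentromeric peaks the median length was 127 bp (interquartile range 93 to 205.2) in the knockdown and 160 bp (103.5 to 318.5) in the wild type, against whole-list medians of 147 and 252.5 bp. Together the peaks covered 89345 bp in the knockdown list and 61627 bp in the wild-type list. By bases, 37.3% of the knockdown and 54.1% of the wild-type length lay under a peak of the other list.

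Within the window the local background moved with sharing in both lists. A background above 1.1 times the list's lowest, called raised here (a limit chosen after seeing the values), was found in 122 of the 400 knockdown peaks (30.5%, against 31.9% of the whole list) and in 73 of the 183 wild-type peaks (39.9%, against 54.5%). Among peaks with raised background 51 of 122 knockdown peaks (41.8%, against 44.9% in the whole list) and 55 of 73 wild-type peaks (75.3%, against 21.5%) were shared. Among the others, at up to 1.1 times the lowest background, 27 of 278 knockdown peaks (9.71%, against 19.6%) and 26 of 110 wild-type peaks (23.6%, against 23.4%) were. Without raised background the sides of the insertion were close, with 8.70% (left) and 10.2% (right) of knockdown peaks shared. For the wild type these shares were 21.05% and 25%. At raised background they were 28.57% left and 44.55% right in the knockdown, and 46.15% and 81.67% in the wild type. In the whole wild-type list, then, sharing was not higher at raised background. In the pooled gene-poor runs of chromosomes 1, 3, 4 and 5 it was. There 62.1% of raised and 34.4% of other knockdown peaks were shared, and 80.75% and 69.35% of wild-type peaks. In the run of chromosome 3 alone sharing was lower at raised background, at 46.5% against 47.5% (knockdown) and 68.8% against 79.2% (wild type). The part of background in this pattern was not tested.

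**Figure D3:**
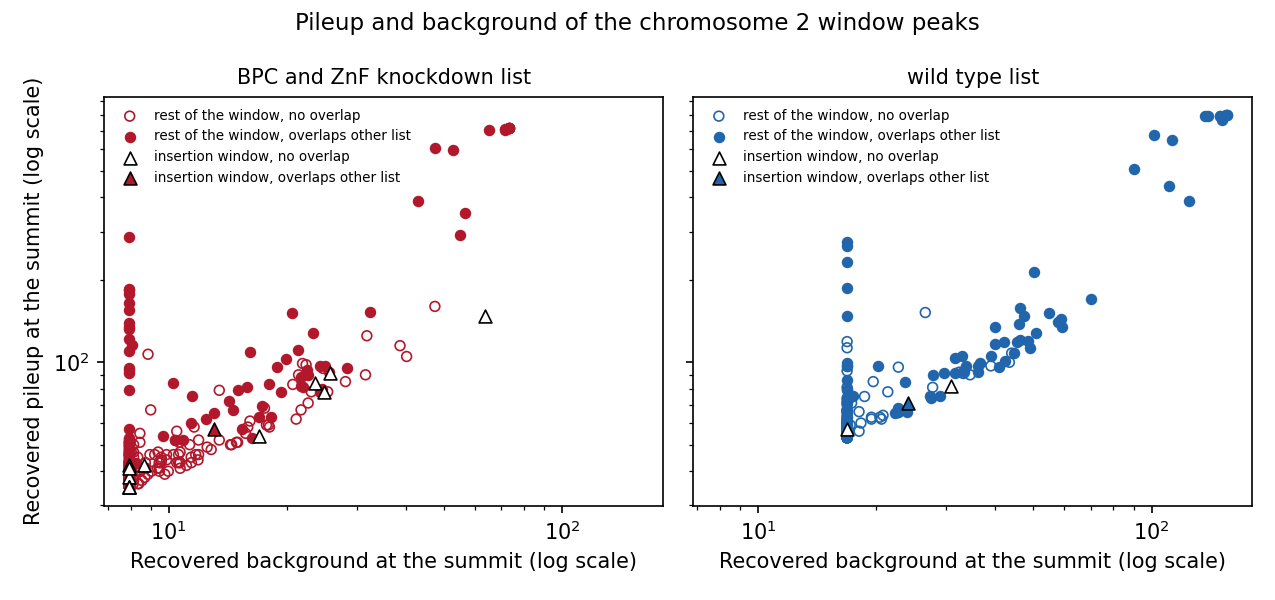
Recovered pileup against recovered background at each summit, both on log scales, for the knockdown list (left) and the wild-type list (right). Filled symbols overlap the other list, open ones do not, and triangles are the insertion window; backgrounds begin at 7.95 in the knockdown and 16.9 in the wild type, and the highest points reach pileups of 720 and 800.

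The insertion window was the emptiest stretch of the region. Its density was 32.5 knockdown and 7.5 wild-type peaks per Mb. A single gap without peaks ran from 3232047 to 3495883 in the knockdown list (263.8 kb) and from 3228326 to 3547993 in the wild-type list (319.7 kb). It ranked 37 among 4877 gaps of the knockdown list and 2 among 6535 of the wild-type list. The gap contained 89 protein-coding genes in the knockdown list and 96 in the wild-type list by the gene table. The peak numbers given by the caller run along the genome, so missing numbers count calls that the lists leave out. The gap skipped 1 number in the knockdown list and 9 in the wild-type list. The next longest gaps of the window, of 91.0 kb in the knockdown and 199.5 kb in the wild type, skipped 25 and 48. Whether reads of this stretch could be placed was not tested, since alignments were not used here.

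The peaks of the insertion window lay toward its edges. In the knockdown 4 of the 13 fell between 3202654 and 3232046 and 8 between 3546102 and 3597460, which left 1 in between. The 3 wild-type peaks were at 3228213 to 3228325 (fold 3.25), 3547994 to 3548472 (fold 2.87) and 3548847 to 3548939 (fold 2.60), all with summits in pseudogenes. The knockdown peak of highest fold, 4.81, lay at 3227430 to 3227822 in the pseudogene AT2G07660, which also held the first of the wild-type peaks. The lists shared 1 site, at 3547997 to 3548518 in the knockdown and 3547994 to 3548472 in the wild type, in the pseudogene AT2G07789.

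The knockdown peak between these edges stood on a high background. It lay at 3495884 to 3495992 in AT2G07739, the 1 protein-coding gene of 101 in the insertion window with a knockdown peak, and 0 of the 101 had a wild-type peak. Over the genome 4.39% of protein-coding genes had a knockdown and 9.94% a wild-type peak. Its pileup was 148 over a background of 63.6, which is 8.01 times the lowest of the list, and its fold of 2.31 was the lowest of the 13. The other 12 knockdown peaks had folds of 3.06 to 4.81.

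Immediately right of the window, the first 30 kb held the tallest peaks of the region. It was singled out after its values were seen. It contained 16 knockdown peaks, 11 of them shared, and 12 wild-type peaks, all 12 shared. Pileup reached 720 in the knockdown and 800 in the wild type, and background 73.3 and 155.5. These are the highest values of each whole list. A pileup of exactly 720 was that of 10 peaks of the knockdown list, 5 of them here. Exactly 800 was that of 18 peaks of the wild-type list, 4 of them here. Whether the caller stops counting at these values was not tested, so height and fold here are not read as amounts of FIE. Pileup and background were both within 2% of these maxima in 16 peaks of the whole knockdown list, 5 of them in this stretch, and in 17 of the wild-type list, 4 of them here. No other peak of the region came so close. The peaks over annotated ribosomal RNA genes near the start of chromosome 2 and on chromosome 3 were of the same height, with pileups of 716 and 719 in the knockdown and 800 and 800 in the wild type.

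In this stretch a run of 19 peaks (11 knockdown, 8 wild type) extended over 16866 bp from 3611228 to 3628093. It covered 2 protein-coding genes. AT2G08986 had peaks over 99.0% of its body in the knockdown and 96.6% in the wild type, with folds up to 9.75 and 5.29, and AT2G07981 over 92.2% and 91.7%, with folds up to 9.83 and 5.27. Without the 16 and 12 peaks of this stretch, the shares became 17.5% of knockdown and 40.4% of wild-type pericentromeric peaks.

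The highest folds of both lists in the region lay elsewhere, at sites with the lowest background. The knockdown peak at 5099964 to 5100112 had a fold of 32.1 (pileup 286) and its wild-type partner at 5099957 to 5100097 a fold of 14.95 (pileup 266), with summits at the same base. Both lay 76 bp from the pseudogene AT2G12510. Further right, a run of 5 knockdown and 4 wild-type peaks between 5198198 and 5205905 held no gene of the table. Its folds were 20.8, 20.7, 19.9, 18.6 and 17.4 in the knockdown and 15.5, 13.1, 10.5 and 8.29 in the wild type, and all 9 backgrounds were at the lowest value. Peaks covered 7163 bp of it in the knockdown and 7250 bp in the wild type, so its outline was nearly the same in both lists.

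The 4 further pairs described here were taken from the top of the knockdown folds, so they lean toward high knockdown pileups. The pair starting at 6002261 in the knockdown had pileups of 139 in the knockdown and 71 in the wild type, and the pair at 3092749 had 134 and 79. The pair at 4648491 had 132 and 97, and the pair at 4650330 had 122 and 56. Over all 17 pairs without raised background and with summits at most 30 bp apart, the knockdown pileup was the higher one in 10 and the lower one in 7. By fold, the highest knockdown peak without a wild-type partner was at 5022330 to 5022531, with a fold of 10.95 (pileup 107).

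Pairs were formed by overlap, so their closeness is in part built in. The 83 overlapping pairs of the region, insertion included, had summits a median of 15 bp apart (interquartile range 5 to 41.5), and in 47 of them the longer peak covered the shorter one whole. In 26 pairs the summits were more than 30 bp apart, up to 5317 bp. In the 57 pairs within 30 bp the median background ratio of knockdown to wild type was 0.471 and the median pileup ratio 0.821 (0.505 to 2.18). The pileup ratio exceeded the background ratio of 0.471 in 57 of 57 pairs, against 864 of 874 pairs of the whole lists, whose median was 0.784. The median was 1.08 in the 17 pairs without raised background in either list and 0.801 in the 40 pairs at raised background. A pair must pass the filter in both lists, which leaves out sites with few knockdown reads, so the count is fixed in part by this choice. Of the 57 pairs, 9 lay in the first 30 kb right of the insertion window, with a median pileup ratio of 0.9. A pair at both pileup maxima, 720 and 800, has that ratio by those values alone. The other 48 pairs all exceeded 0.471, with a median of 0.7755.

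**Figure D4:**
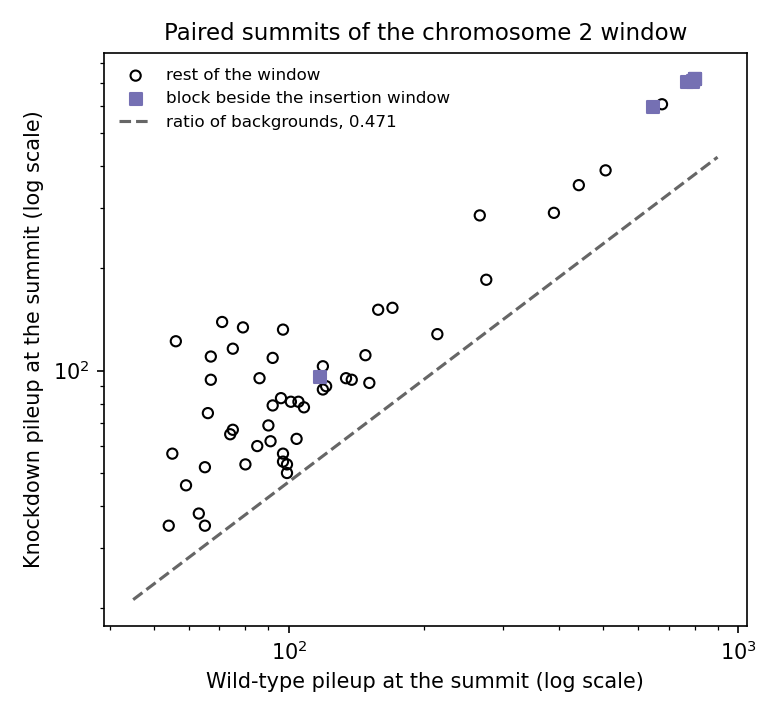
Knockdown against wild-type pileup, both on log scales, at the 57 pairs of the region whose summits were at most 30 bp apart. Circles are pairs of the rest of the window, squares the pairs of the stretch beside the insertion window, and the dashed line is the median background ratio of 0.471, which every pair exceeds. Squares at both pileup maxima, 720 and 800, stand above the line by those values alone.

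Peaks also stood in runs. With gaps of at most 1 kb the 599 peaks formed 364 runs, of which 63 held peaks of both lists, 232 knockdown peaks alone and 69 wild-type peaks alone. Single peaks made up 268 of the runs, and 18 had 5 or more. The run at 3950734 to 3956382 had 9 knockdown and 8 wild-type peaks over the pseudogenes AT2G10280 and AT2G10285, and that at 3661529 to 3664746 had 7 and 6 with no gene. The run at 2564039 to 2568769, over AT2G06460 and AT2G06470, had 9 knockdown and 2 wild-type peaks. The run at 4238973 to 4242104, over the pseudogene AT2G10780, had 7 knockdown peaks and no wild-type peak.

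By gene class the lists differed in pseudogenes and protein-coding genes. Pseudogenes, a class in which the gene table does not tell transposon genes apart, held 181 of the 400 pericentromeric knockdown summits (45.3%, interval 40.4% to 50.2%) and 53 of the 183 wild-type summits (29.0%, 22.9% to 35.9%). They make up 34.3% of the bases, and hold 26.2% of all knockdown and 7.69% of all wild-type summits of the whole lists. At −log10 q of at least 15 their share was 30.2% of 126 knockdown and 15.2% of 79 wild-type summits, both below the base share. Without that limit, pseudogenes left of the insertion held 56.6% of knockdown summits (47.4% to 65.4%), against 30.0% of bases. Right of it they held 40.8% (35.2% to 46.5%), an interval that includes the 36.8% of bases. The wild-type shares were 31.4% left and 28.0% right. Protein-coding genes held 23 knockdown summits (5.75%, 3.86% to 8.48%) and 28 wild-type summits (15.3%, 10.8% to 21.2%), with 16.1% of the bases and 25.7% and 44.4% of the whole lists. No gene lay under 193 knockdown summits (48.3%) and 99 wild-type summits (54.1%), close to the 48.7% of bases without one, and the whole-list shares were 47.4% and 45.5%.

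**Figure D5:**
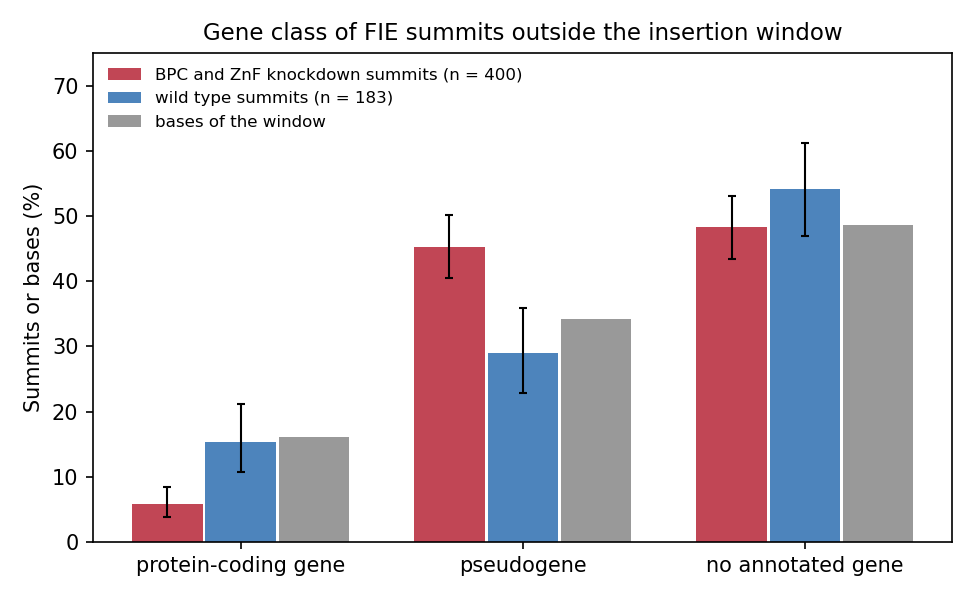
Percent of pericentromeric FIE summits in protein-coding genes, pseudogenes and outside genes for the knockdown (n = 400) and the wild type (n = 183), with 95% Wilson intervals, beside the percent of bases of the window in each class (grey). Knockdown summits exceed the base share in pseudogenes (45.3% against 34.3%) and are below it in protein-coding genes (5.75% against 16.1%). The pseudogene excess was larger left of the insertion (56.6% against 30.0%). Right of it (40.8% against 36.8%) the interval included the base share. At −log10 q of at least 15 the knockdown share in pseudogenes was 30.2%, below the base share.

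The classes also differed in sharing. Of summits in pseudogenes 8.29% were shared in the knockdown and 32.1% in the wild type, and of those outside genes 30.1% and 58.6%. Of those in protein-coding genes 21.7% and 21.4% were shared. Wild-type peaks with a summit in a protein-coding gene had a median length of 365.5 bp, whereas those of the knockdown had 116 bp. Unshared wild-type summits lay a median of 4680.5 bp from the nearest protein-coding gene and shared ones 8889 bp. In the knockdown the medians were 7711 bp for unshared and 8814 bp for shared summits.

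Of 706 pseudogenes outside the insertion window, 133 carried a knockdown peak (18.8%, against 17.9% over the genome) and 41 a wild-type peak (5.81%, against 7.95%). Both lists had a peak on 19 of them. These 19 were 14.3% of the knockdown set (25.2% over the genome) and 46.3% of the wild-type set (56.9%). In the insertion window 4 of 62 pseudogenes had a knockdown peak and 2 a wild-type peak, and both genes with a wild-type peak also had a knockdown one.

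Of 392 protein-coding genes outside the insertion window, 23 carried a knockdown peak (5.87%, against 4.39% of the genes of the genome) and 27 a wild-type peak (6.89%, against 9.94%). Peaks of both lists were on 6, which is 26.1% of the knockdown set (17.1% over the genome) and 22.2% of the wild-type set (7.55%). Besides AT2G08986 and AT2G07981 these were AT2G05250, AT2G10940, ACO3 and AT2G15020. In ACO3 the knockdown peak covered 83 bp (fold 4.35) and the wild-type peak 256 bp (fold 4.17), and they did not overlap. The peaks of the lists did not overlap in AT2G05250 and AT2G10940 either, so they overlapped in 3 of the 6 genes. In AT2G15020 knockdown peaks covered 96 bp and wild-type peaks 1334 bp.

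In the 17 genes with a knockdown peak alone, the longest peak on each gene had a median length of 116 bp (72 to 356). The highest folds were 6.80 in AT2G06570, 4.92 in AT2G14945, 4.60 in AT2G04390, 4.53 in AT2G12400 and 4.44 in AT2G05230. The next were 4.25 in AT2G10615, 4.14 in AT2G06425 and 4.03 in AT2G05120.

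In the 21 genes with a wild-type peak alone, the longest peak on each gene had a median length of 354 bp (85 to 1645). After AT2G04930, AGL44 and AT2G12290 came AT2G05580 (fold 4.20) and GH3.1, which belongs to the family of auxin-conjugating enzymes. GH3.1 had 2 wild-type peaks with folds up to 3.98 over 71.4% of its body. The others named by rank were AT2G05786 (fold 3.87), AT2G05410 (3.81) and AT2G12461 (3.53), and the bodies of AT2G05786 and AT2G12461 were wholly covered. Of the 21, 3 had a peak that would pass after scaling, AT2G04930, AGL44 and AT2G12290. For the others no peak would pass, so the missing knockdown peak is not read as a loss. Failing the scaled limit does not preclude a knockdown peak. Of the 81 shared pericentromeric wild-type peaks, 32 would pass.

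Genes with a symbol in the table were also listed, a choice made after their values were seen. Of 108 such genes 7 had a knockdown peak, against 4.42% of such genes over the genome, and 10 a wild-type peak, against 11.7%. Nothing is read from these counts. With a knockdown peak alone were VPS11 (vacuolar protein sorting), PRK2A (a receptor-like kinase of pollen), MIR855, NAD-ME1 (mitochondrial malic enzyme), CALS5 (callose synthase) and ALDH6B2 (an aldehyde dehydrogenase), at folds of 3.92 to 4.03. The peaks of the protein-coding genes among them were all at the lowest pileup and background of the list. VPS11, MIR855 and NAD-ME1 were overlapped for only 25, 27 and 41 bp, and the summits lay outside VPS11 and MIR855. With a wild-type peak alone were PR1, a marker of salicylic acid defence, at a fold of 3.30 over 341 bp, and PLA2-ALPHA, a phospholipase gene, at 3.13 over 377 bp. SDG11, MOD1 (fatty acid synthesis), LCR29 and CYP705A13 had folds of 3.19, 3.08, 3.19 and 3.03. None of the wild-type peaks of these 6 would pass after scaling to the knockdown depth.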

How the data were processed

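The authors deposited 1 narrowPeak list per anti-FIE group. Bowtie2, MACS2 2.1.0.20151222, bedtools and the TAIR10 build appear without roles in the submitters' processing notes. The uses of replicates and input are not given in the sources used here. The deposited columns are the interval, a score (10 times −log10 q), a fold enrichment ratio, the p-value and q-value as −log10, and the offset of the summit; the lowest deposited −log10 q was 10. Read depth is not given.

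Summits were placed at the start plus the offset. A whole-number pileup and a background were solved from the deposited fold and p-value under a Poisson model, with a largest misfit of 6.36e-04 (knockdown) and 7.27e-04 (wild type) on the −log10 p scale; on simulated peaks 500 of 500 pileups in each list came out exact. Peak overlap needed 1 bp. Genes came from the RefSeq table of TAIR10.1, which gives no strand, exon or description, so summits were classed by gene body alone, and lists sought by description words found almost no genes: 7 kinases (1 with a knockdown peak, 0 with a wild-type peak) and 1 transposon-like gene (no peak). Named genes were those with peaks in both lists and the 8 of highest fold in each list alone; named peaks were the 6 of highest fold and 3 longest. The members and lists were chosen with earlier results of these data known. No genome sequence was used. Python 3.11.15, numpy 2.4.6, pandas 2.3.3 and scipy 1.17.1 were used.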

Additional observations from a re-analysis of the deposited data

How the results depend on the processing

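Of 101 values recomputed under other settings, 74 stayed within their interval or within 1.5 times and 27 moved. Some of the 74 could not move, because the setting did not touch their peaks. Such are the knockdown peak numbers, length and gene classes when only wild-type peaks were filtered. The insertion-window values with the region cut to 2.0 to 6.0 Mb are another case. With −log10 q of at least 15, outside the insertion window 126 knockdown and 79 wild-type peaks remained, 39.7% and 63.3% of them shared, with 30.2% and 15.2% of summits in pseudogenes, 65.1% and 65.8% outside genes, and a knockdown median length of 196.5 bp; the insertion window kept 4 knockdown peaks (0% shared) and 0 wild-type peaks. With only the wild-type peaks that would pass after scaling to the knockdown depth, 39 remained outside the window and 0 in it; 8% of knockdown peaks and 82.1% of these wild-type peaks were shared, 0% of knockdown peaks in the insertion window, and the wild-type peaks had a median length of 321 bp, with 7.69% of summits in pseudogenes and 74.4% outside genes. With the insertion taken as 3.2 to 3.5 Mb it held 5 knockdown peaks and 1 wild-type peak, 0% shared in both. With gene bodies extended by 1 kb, 49 protein-coding genes had a knockdown peak, 44 a wild-type peak and 11 both. Leaving out the first 30 kb right of the insertion window was chosen after seeing the data and moved none of its 16 values past these limits. Those of the insertion window among the 16 could not move. No paired analysis was possible because each group has 1 list, so replicates could not be left out either. A peak list gives no replicate spread, and missing peaks are not measured absences.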

Other observations

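The caller numbered its calls along the genome, so the numbers also count calls that are not in the deposited lists; why each was left out was not tested. Between 1.5 and 6.5 Mb of chromosome 2 there were 47.3 numbered calls per 100 kb in the knockdown and 27.0 in the wild type. Of these calls 17.5% were deposited in the knockdown list and 13.8% in the wild-type list. On the rest of the chromosome 7.28% of the knockdown and 17.3% of the wild-type calls were deposited, and over the whole lists 12.1% and 18.6%. Within the window the deposited share was 14.7% of knockdown and 12.3% of wild-type calls left of the insertion, and 18.8% and 14.9% right of it.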
